A study of Mus musculus with 13 samples.

Results

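H3K4me3 peak lists of 3 mouse leukaemia cell lines that carry the same fusion, NUP98-PHF23 (NP23), were compared, 1 from a myeloid leukaemia and 2 of the T lineage. They are 3 of the 13 samples and 3 of the 9 peak lists in the series. Line 961C was derived from an NP23 AML (acute myeloid leukaemia) and is described as a myeloblast line. The pre-T lines, 748T and 106A, come from NP23 pre-T LBL and are described as lymphoblast lines. All 3 lines are C57BL/6, come from different animals, carry NP23, are cytokine independent and differ in the labelled lineage of the leukaemia. With 1 AML line, the lineage cannot be told apart from the line, the animal or the library. The control line of the series, which carries SCL and LMO1 in place of NP23, was not used. Each line has 1 H3K4me3 library, so the AML side has n = 1 and the pre-T side n = 2, and no test between the groups was made. A region was counted as different only where 961C differed from both pre-T lines, and the difference between 748T and 106A served as the measure of how far 2 lines of 1 lineage stand apart.

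H3K4me3, trimethylation of lysine 4 of histone H3, marks active and poised promoters. It usually forms a peak of a few nucleosomes at a transcription start, and stretches over much longer domains at genes that define a cell's identity. T cell regulators such as Bcl11b, Tcf7, Gata3 and Lef1, and myeloid regulators such as Spi1 and Cebpa, are genes of that kind in blood. PHF23 contributes a PHD finger, a fold that reads H3K4me3, and NUP98 fusions are known for keeping Hox genes and Meis1 active in leukaemia. H3K27me3, the mark of Polycomb repression, is usually low at active promoters. Regions are given below by their mm9 coordinates, and the genes in them were not assigned, because no mm9 gene annotation was used here. For the same reason the labelled lineages were not checked against marker genes.

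On the 19 autosomes the lists held 17109 peaks in 961C, 16994 in 748T and 15793 in 106A, covering 21.3, 19.8 and 20.7 Mb. Merging peaks that overlapped by at least 1 bp gave 22382 regions, which are the members described here. Read totals are not in the lists, so depth is not known for any library. Height is the maximum of the sample's pileup over a peak. Its median was 39 in 961C, 77 in 748T and 99 in 106A, and heights were therefore compared only as ranks within a list, from 0 for the lowest peak to 100 for the highest. The lists also give the height of a second track, unexplained in the files and low at most peaks, with a median of 0.266 in 961C, 0.202 in 748T and 1.47 in 106A.

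The 3 lines shared most wide H3K4me3 regions and few short ones. All 3 lines held 9665 of the 22382 regions (43.2%, 95% interval 42.5 to 43.8, exact Clopper-Pearson, counting error only, as for all intervals here). Summed over these regions, the mark covered 17.2 Mb in 961C, 15.8 Mb in 748T and 17.3 Mb in 106A, which is most of each list. Regions of 961C alone numbered 4648, or 20.8% of all regions. Regions of both pre-T lines without 961C numbered 1926, or 8.61%. The latter count rested on asking for both lines: it was 4350 with 748T left out and 5038 with 106A left out.

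Each pre-T line had fewer regions of its own. Regions of 748T alone numbered 2732 (12.2%) and those of 106A alone 2201 (9.83%). Only 936 regions (4.18%) were missing from 106A alone and 274 (1.22%) from 748T alone, against the 1926 missing from 961C alone. Most exclusive regions were short: 59.5% of those of 961C, 62.5% of those of 748T and 72.2% of those of 106A stayed under 500 bp. Regions that both pre-T lines held and 961C lacked were wider, with a median of 655 bp in 748T and 701 bp in 106A, and 27% were under 500 bp. This was not particular to the pre-T pair. Regions of 961C and 748T had medians of 824 and 677 bp, with 17.6% under 500 bp. Those of 961C and 106A had 518 and 482 bp, with 36.1% under 500 bp.

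Wider regions were shared more often. Among the 7170 regions under 500 bp, 4.50% were held by all 3 lines, and 38.6% by 961C alone. Between 1 and 2 kb the share held by all 3 was 68.7% of 6229 regions. Of the 4339 regions of 2 to 4 kb it was 84.2%, and of the 642 regions of 4 kb or more it was 79.8% (76.4 to 82.8). Exclusive regions of 2 kb or more remained in either direction, 218 of 961C alone and 299 of both pre-T lines, out of 4981 regions of that width. The width is the widest in any line, so a pre-T region could reach 2 kb in either line. With 748T left out the counts were 324 and 326, and with 106A left out 239 and 245.

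**Figure D1:**
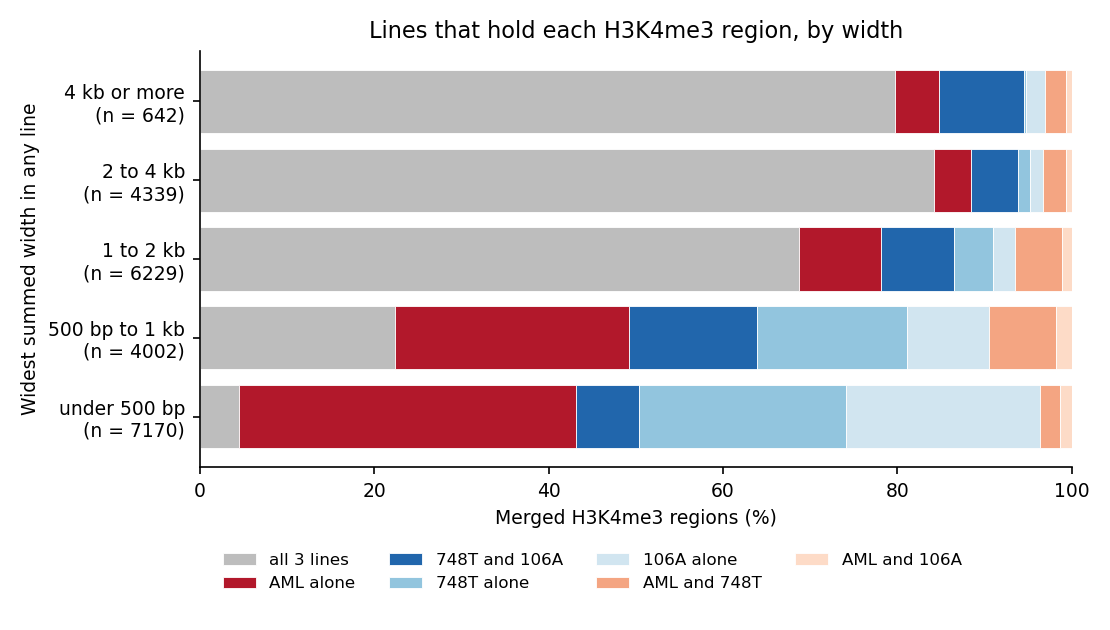
Share of merged H3K4me3 regions (x axis, %) held by each combination of lines, in 5 classes of the widest summed width in any line (y axis, n per class). Grey, all 3 lines, grows from 4.50% under 500 bp to 79.8% at 4 kb or more, while 961C alone (red, marked AML) shrinks from 38.6% to 4.98%.

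Sharing also followed height within each list. In the lowest 10% of the 961C list by maximum height, 27.5% (25.4 to 29.6) of peaks overlapped a peak of 748T and 25.4% one of 106A. In the highest 10%, 98.1% overlapped 748T and 97.2% overlapped 106A. Each pre-T list met the other pre-T line more often than 961C in every 10% of its ranking. Of 106A peaks with ranks from 40 to 50, 95.4% (94.3 to 96.4) overlapped 748T and 82.9% (81.0 to 84.7) overlapped 961C. Over the whole list, 106A met 748T at 82.9% of its peaks and 961C at 72.5%.

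**Figure D2:**
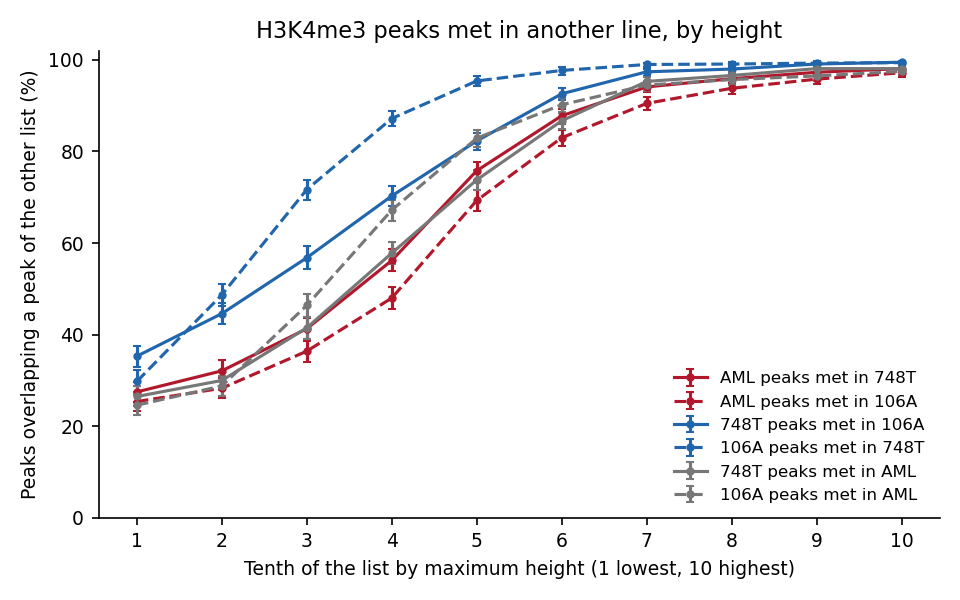
Share of the peaks of one list that overlap a peak of another (y axis, %), in steps of 10% of the first list's height ranking (x axis), with exact 95% intervals as bars. At every step each pre-T list met the other pre-T line (blue) more often than it met 961C (grey, marked AML), and all curves end between 97.2% and 99.5% in the highest step.

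A small number of tall regions were nonetheless exclusive. Of the 4648 regions of 961C alone, 408 (8.78%, 7.98 to 9.63) ranked in the upper 50% of its list and 18 in the upper 5%. Of the 1926 regions of both pre-T lines without 961C, 210 (10.9%, 9.55 to 12.4) ranked in the upper 50% of both lists and 6 in the upper 5% of both. Chosen after its values were seen, the pre-T region whose lower rank of the pair was highest lay on chromosome 2 from 9792559 to 9801788, with a height of 161 in 748T (rank 98.9) and 180 in 106A (rank 99.2). The tallest of 961C alone, on chromosome 15 from 36808507 to 36809683, reached a height of 130, and its second track was also high, at 3.99 against the list's median of 0.266. The part of that track in the height was not tested. The next, on chromosome 5 from 114246879 to 114250612, reached a height of 112 (rank 99.7) with a second track of 0.553.

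The widest regions of 961C alone were long domains, and NP23 itself sat on 5 of the 10. Shared regions of 5 to 8 kb in 961C with neither width call held NP23 in 31 of 82 (37.8%), and those of 8 kb or more in 15 of 15, so 5 of 10 does not set these domains apart. In order of width they lay on chromosome 11 from 18906962 to 18920935 (13974 bp), chromosome 5 from 143576293 to 143585469 (9177 bp) and chromosome 11 from 96111545 to 96120684 (9140 bp). The next were on chromosome 18 from 55145203 to 55152490 (7288 bp), chromosome 5 from 100995313 to 101002441 (7129 bp) and chromosome 19 from 12533686 to 12540660 (6975 bp). Then came chromosome 11 from 79346376 to 79352570 (6195 bp) and chromosome 3 from 68493992 to 68499889 (5898 bp). Chromosome 2 from 44963158 to 44968794 (5637 bp) and chromosome 5 from 139879429 to 139885041 (5613 bp) closed the series. In 961C the mark was unbroken over each of the 10. The widest had a height of 43 and rank 52.8, the lowest of the 10, and the other 9 ranked from 67.3 to 99.0 in the 961C list.

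NP23 was mapped in 961C through a V5 tag. Peaks of the fusion protein covered 78.5% of the widest domain with 6 peaks, 89.4% of the 9140-bp domain, 66.6% of the domain on chromosome 19, 93.0% of the 6195-bp domain and 81.2% of the domain on chromosome 3. The other 5 domains held no listed NP23 peak over lengths of 5613 to 9177 bp, and these include the next to widest. H3K27me3 of the pre-T lines was found at 2 of the 10. The 9140-bp domain on chromosome 11 had 2 H3K27me3 peaks in 748T and 5 in 106A, and the domain on chromosome 2 had 3 in 106A and 0 in 748T. None of the 10 had an H3K27me3 peak in 961C.

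The widest regions of the pre-T lines that 961C lacked were as long. On chromosome 12 from 109231156 to 109244876, H3K4me3 covered 13371 bp in 748T and 13515 bp in 106A. On chromosome 3 from 130808719 to 130821439 it covered 11682 and 12715 bp. Its heights were 155 in 748T (rank 97.9) and 196 in 106A, where the rank rounds to 100.0 and the highest peak reached 200. A further domain on chromosome 12, from 107813470 to 107825452, covered 9762 and 11983 bp. In these 3 domains the pre-T lines were close in width, although on chromosome 12 at 107813470 the ranks were 54.7 in 748T and 93.4 in 106A.

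In the other 7 the pre-T lines were close in some and apart in others. On chromosome 11 from 52088767 to 52098577 the mark covered 9809 bp in 748T and 5912 bp in 106A. On chromosome 15 from 85495449 to 85505371 it covered 9646 and 9609 bp, and on chromosome 2 from 9792559 to 9801788 it covered 9230 and 8980 bp. They stood apart on chromosome 13 from 19433970 to 19443166, with 4448 bp and a height of 40 in 748T and 9197 bp and a height of 137 in 106A. The last 3 lay on chromosome 9 from 69605366 to 69613245 (7305 and 7865 bp), chromosome 19 from 41101844 to 41108724 (3607 and 6881 bp) and chromosome 9 from 71738219 to 71744607 (5292 and 6389 bp). In 961C, 4 of the 10 carried H3K27me3 peaks in place of H3K4me3: 4 peaks on chromosome 11, 4 on chromosome 9 at 69605366, and 1 each on chromosome 12 at 109231156 and on chromosome 2. No H3K27me3 peak of a pre-T line and no NP23 peak of 961C lay in any of the 10.

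**Figure D3:**
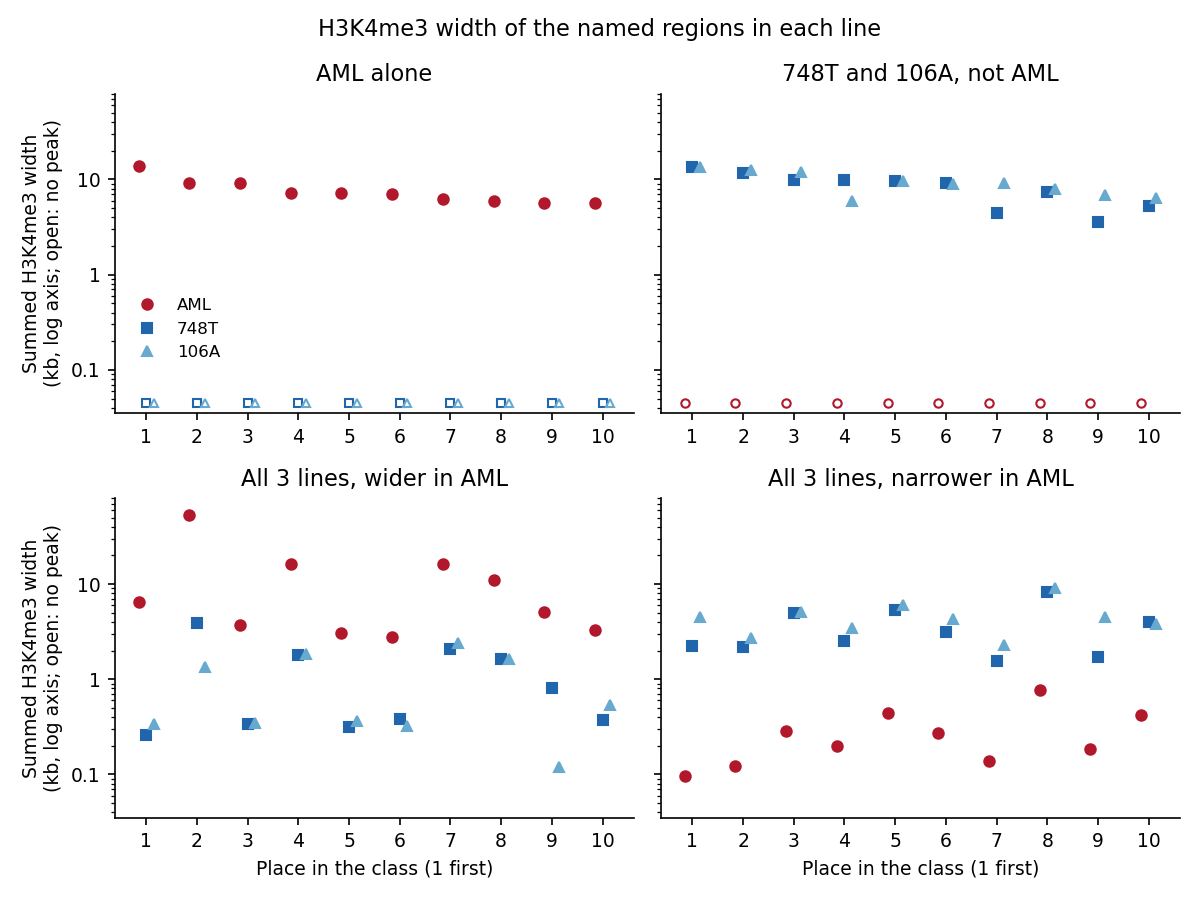
Summed H3K4me3 width in each line (y axis, kb, log axis) for the 10 regions of each of 4 classes, in order of width in the upper panels and of the width ratio to the nearer pre-T line in the lower ones (x axis). Open symbols at the bottom mark a line with no peak, and 748T (squares) and 106A (triangles) lie close together in most regions, with 961C (circles, marked AML) apart by construction of the classes.

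Among the 9665 regions of all 3 lines, widths were close. The log2 ratio of summed width had a median of 0.12 for 961C over 748T, 0.01 for 961C over 106A and -0.11 for 748T over 106A. Its spread was larger where 961C was involved, with an SD over regions of 0.62 and 0.69 against 0.50 between the pre-T lines. The rank correlation of widths over the 9665 regions was 0.79 and 0.76 for 961C with 748T and 106A, and 0.87 for 748T with 106A. Regions are not independent replicates, and these correlations describe 3 libraries.

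At a 2-fold limit against both pre-T lines, 165 shared regions (1.71%) were wider in 961C and 372 (3.85%) were narrower. The same counts for 748T against 961C and 106A were 45 (0.466%) and 109 (1.13%), and for 106A against 961C and 748T they were 116 (1.20%) and 140 (1.45%). Each line differed from both others in some regions, and 961C did in more of them. Wider regions had a median of 2620 bp in 961C, 789 bp in 748T and 802 bp in 106A. Narrower regions had a median of 456 bp in 961C, 1470 bp in 748T and 1684 bp in 106A. The surplus of narrower over wider regions depended on the choice of peaks and lines: the taller 50% of each list gave 94 and 94, 748T alone (106A left out) gave 604 wider and 572 narrower, and 106A alone gave 436 and 688. Ratios centred on their medians gave 139 wider and 416 narrower.

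**Figure D4:**
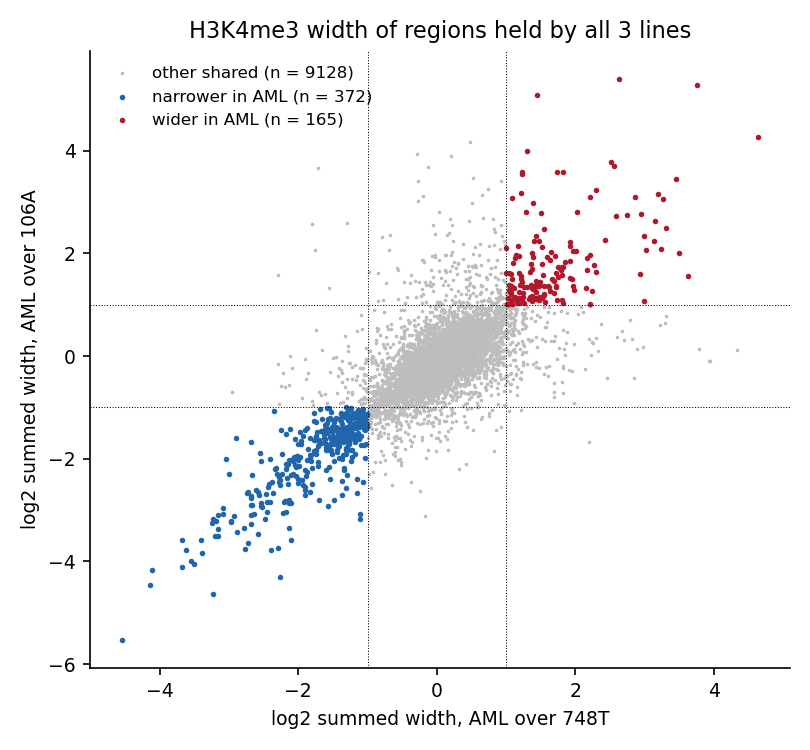
Log2 ratio of summed H3K4me3 width, 961C (marked AML) over 748T (x axis) and over 106A (y axis), for the 9665 regions of all 3 lines, each a point. Dotted lines mark 2-fold, the 165 regions wider in 961C are red and the 372 narrower ones blue.

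Among shared regions of 2 kb or more, the 10 with the largest width ratio were 6.17- to 19.2-fold wider in 961C than in the nearer pre-T line. First was chromosome 17 from 34325797 to 34332307, with 6511 bp in 961C against 262 bp in 748T and 339 bp in 106A. There the rank in the list was 80.6 in 961C, 15.6 in 748T and 6.7 in 106A, so both width and height differed. With peaks within 1 kb joined, the rank difference to the nearer pre-T line fell from 65.0 to 9.6 points and no longer met the limit of 25, while the width call held. Next was chromosome 11 from 96132114 to 96184711, where 1 peak of 52598 bp in 961C faced 3902 bp in 748T and 1354 bp in 106A. This is the widest H3K4me3 peak in the 3 lists, 13.5-fold above 748T. The pre-T lines carried 5 and 6 H3K27me3 peaks over it.

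Part of the others were broad domains in 961C over a pre-T peak of 1631 to 2390 bp. On chromosome 11 from 79879518 to 79895921 the widths were 16404 bp in 961C, 1792 bp in 748T and 1836 bp in 106A. On chromosome 14 from 32628722 to 32645219 they were 16219, 2102 and 2390 bp, and here the pre-T peaks were the taller ones in rank (98.9 and 97.1 against 80.6). On chromosome 6 from 51952513 to 51963659 they were 10922, 1634 and 1631 bp. NP23 covered 79.9%, 85.2% and 75.1% of these 3 regions.

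Further regions were peaks of 2771 to 3736 bp in 961C over a small peak in the pre-T lines. On chromosome 4 from 149075000 to 149078735 the widths were 3736, 341 and 344 bp in the same order, and on chromosome 9 from 63458535 to 63461567 they were 3033, 316 and 362 bp. On chromosome 4 from 132349947 to 132352717 they were 2771, 380 and 322 bp, and on chromosome 2 from 84263991 to 84267264 they were 3274, 371 and 531 bp. None of these 4 held NP23. The last of the 10, chromosome 5 from 20448318 to 20453350, measured 5033 bp in 961C, 815 bp in 748T and 119 bp in 106A, with 4 NP23 peaks over 34.6% of it.

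In the other direction, the 10 with the largest ratio were 9.01- to 23.3-fold narrower in 961C than in the nearer pre-T line. The first was chromosome 2 from 84678537 to 84683001, with 97 bp in 961C, 2258 bp in 748T and 4465 bp in 106A. On chromosome 7 from 134757690 to 134760414 the widths were 124, 2180 and 2725 bp, and on chromosome 18 from 39675120 to 39680282 they were 285, 4932 and 5125 bp. In each of these the 961C peak had a height of 15 or less, against 95 to 143 in the pre-T lines. On chromosome 6 the regions from 122689769 to 122693216 (199, 2550 and 3448 bp) and from 142909400 to 142913715 (271, 3154 and 4303 bp) were alike in form.

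Chromosome 9 from 44785196 to 44794724 was the widest of these 10 in the pre-T lines, at 8157 bp in 748T and 9162 bp in 106A, against 770 bp in 961C. The remaining 4 were chromosome 10 from 36855397 to 36861387 (439, 5397 and 5991 bp), chromosome 7 from 134360413 to 134362725 (139, 1571 and 2313 bp), chromosome 3 from 86720471 to 86725012 (184, 1724 and 4542 bp) and chromosome 14 from 61326978 to 61331540 (426, 4013 and 3840 bp). H3K27me3 of 961C lay in 3 of the 10, with 3 peaks each in the first pair and 2 on chromosome 10. Neither pre-T line had an H3K27me3 peak in any of them. The other 9 measured 97 to 439 bp in 961C, so with peaks under 500 bp left out they count as missing from it.

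A rank at least 25 points above both pre-T lines was found at 231 shared regions (2.39%), and one at least 25 points below both at 316 (3.27%). For 748T against the other lines these counts were 75 and 71, and for 106A they were 107 and 154. Of the 165 wider regions 41 (24.8%) also ranked higher and 1 lower, and of the 372 narrower regions 151 (40.6%) also ranked lower and 0 higher. Width and height come from the same pileup, so the overlap is not independent evidence. Which direction had more regions depended on the peaks that entered: joining peaks within 1 kb gave 350 higher and 311 lower, peaks of 500 bp or more gave 415 and 402, and the taller 50% gave 639 and 560. Against 106A alone (748T left out) there were 798 higher and 663 lower, and against 748T alone 608 and 644.

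The largest rank difference above both pre-T lines was on chromosome 7 from 135348052 to 135350537, at rank 95.5 in 961C, 19.8 in 748T and 27 in 106A. Its widths were 2486, 327 and 824 bp. The chromosome 17 region at 34325797, whose rank call is lost when peaks within 1 kb are joined, came next. On chromosome 6 from 129222141 to 129226651 the ranks were 96.4, 0.9 and 38.1, so 106A lay between 961C and 748T. On chromosome 10 from 126506333 to 126508204 the ranks were 94.6, 38.6 and 35.7 with widths of 1872, 1339 and 1634 bp, which lie within the 2-fold limit. Chromosome 14 from 30835499 to 30839144 had ranks of 81.8, 23.4 and 26.5.

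The largest rank difference below both was at the chromosome 10 region at 36855397, where 961C had a height of 7 (rank 0.6) and the pre-T lines had 120 and 134 (ranks 75.8 and 73.7). On chromosome 11 from 77976828 to 77979546 the ranks were 12.2 in 961C, 90.3 in 748T and 85.0 in 106A. On chromosome 10 from 115909285 to 115910652 they were 12.2, 81.0 and 94.8, on chromosome 11 from 98411163 to 98413394 they were 27.6, 96.0 and 95.3, and on chromosome 14 from 65976528 to 65978790 they were 25.7, 97.3 and 90.5. At all 5 the pre-T ranks lay between 73.7 and 97.3 and those of 961C between 0.6 and 27.6.

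Broad domains were set, after the data were seen, at a summed width of 4 kb or more, and most were broad in some lines and not in others. There were 345 in 961C, 251 in 748T and 399 in 106A, or 642 regions in all. All 3 lines had 97 of them (15.1%) as broad domains. In 188 (29.3%) 961C alone was broad, and in 99 (15.4%) both pre-T lines were and 961C was not. Only 106A was broad in 164, and only 748T in 34, so breadth differed between the pre-T lines as well. At a limit of 5 kb the counts for 961C alone and for both pre-T lines were 94 and 45. With 748T left out, 254 regions were broad in 106A and not in 961C.

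Most of these domains had a narrower peak in the other lineage. Of the 188 regions broad in 961C alone, 33 had no peak in 748T and 44 none in 106A. Their median widths were 4693 bp in 961C, 2541 bp in 748T and 2552 bp in 106A. Of the 99 broad in both pre-T lines, 27 had no peak in 961C, and the medians were 1962 bp in 961C, 4676 bp in 748T and 5446 bp in 106A. NP23 of 961C was present in 78 of the 188 (41.5%, 34.4 to 48.9) and in 37 of the 97 regions broad in all 3 lines (38.1%, 28.5 to 48.6). It was present in 3 of the 99 broad in the pre-T lines alone (3.03%, 0.629 to 8.60). The first pair of intervals overlap, and neither meets the last. By definition, however, the last class is under 4 kb in 961C and the first pair are 4 kb or more there. Shared regions of 2 to 4 kb in 961C with neither width call held NP23 in 95 of 2810 (3.38%, 2.74 to 4.12), near the share of the last class. The contrast was therefore not made at like width in 961C.

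Of all shared regions of 2 kb or more in any line, 43 of 105 wider in 961C (41.0%, 31.5 to 51.0) held NP23, against 176 of 3901 (4.51%, 3.88 to 5.21) with neither width call. The first share was 27.1% with 106A left out. Wider regions held NP23 more often in either class, so like widths in 961C were compared. At 2 to 4 kb, which holds 63 of the 105, 6 wider regions (9.52%, 3.58 to 19.6) and 95 of 2810 others (3.38%, 2.74 to 4.12) held NP23, with intervals that overlap. Among shared regions of 5 to 8 kb in 961C, 17 of 18 wider ones (94.4%, 72.7 to 99.9) held NP23, and 31 of 82 others (37.8%, 27.3 to 49.2). The intervals do not overlap, although the wider ones were still somewhat longer, with a median of 6208 against 5563 bp. Regions of 961C alone in that range held NP23 in 5 of 11 (45.5%, 16.7 to 76.6). At 4 to 5 kb, 4 of 8 wider regions and 33 of 157 others held NP23 (50% and 21.0%), with intervals that overlap. At 8 kb or more, all 16 wider and all 15 other shared regions held NP23, and 2 of 3 regions of 961C alone (66.7%, 9.43 to 99.2). The place of NP23 in the pre-T lines was not analysed here.

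The short regions of 961C alone also held many NP23 peaks. Of its 2767 exclusive regions under 500 bp, 530 (19.2%, 17.7 to 20.7) overlapped an NP23 peak, as did 34 of 1663 (2.04%, 1.42 to 2.85) between 500 bp and 2 kb and 17 of 218 (7.80%, 4.61 to 12.2) of 2 kb or more. The share was thus lowest at middle widths. Among shared regions under 500 bp with neither width call it was 1 of 290 (0.345%, 0.00873 to 1.91). H3K27me3 of 961C was at 157 (5.67%, 4.84 to 6.60) of the same 2767 short regions. The NP23 list holds 1567 autosomal peaks.

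Among regions of 2 kb or more, H3K27me3 of 961C was most frequent where 961C lacked H3K4me3 or had less of it than both pre-T lines. Of the 299 regions of 2 kb or more that both pre-T lines held and 961C lacked, 92 (30.8%, 25.6 to 36.3) had an H3K27me3 peak in 961C. So did 37 of 158 (23.4%, 17.1 to 30.8) that were narrower in 961C. Among the other 3901 shared regions of that width the share was 52, or 1.33% (0.997 to 1.74). At that width 1 of 218 regions of 961C alone (0.459%, 0.0116 to 2.53) and 0 of 105 wider ones had it, the latter allowing up to 3.45%. It was not confined to regions 961C lacked, since 10 of 130 regions of 2 kb or more that 961C shared with 748T but not with 106A (7.69%, 3.75 to 13.7) had it too. Over all widths, 185 of 4648 regions of 961C alone (3.98%, 3.44 to 4.58) had it, above 109 of 9128 shared regions with neither width call (1.19%, 0.982 to 1.44).

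H3K27me3 of the pre-T lines at regions of 961C alone had lower shares. Of the 218 regions of 961C alone, 13 (5.96%, 3.21 to 9.98) had H3K27me3 in 748T and 10 (4.59%, 2.22 to 8.27) in 106A. Both shares lie above those of the other shared regions, 20 of 3901 (0.513%, 0.313 to 0.791) and 6 of 3901 (0.154%, 0.0565 to 0.334). In 748T, regions where it held H3K4me3 itself were also compared. The share was 13 of 299 (4.35%, 2.34 to 7.32) at those 961C lacks and 0 of 57 (0 to 6.27) at those of 748T alone. It was 5 of 130 (3.85%, 1.26 to 8.75) at those held with 961C and missing from 106A. These intervals overlap that of the 5.96%, so with both lines used the 748T share was not shown to be particular to 961C alone. With 106A left out, the 748T share was 1 of 245 (0.408%) at regions 961C lacks, against 13 of 239 (5.44%) at its own. In 106A the share was 1 of 299 (0.334%, 0.00847 to 1.85) at regions 961C lacks, and this interval does not meet that of the 4.59%. It was 1 of 81 (1.23%, 0.0313 to 6.69) at regions of 106A alone. At those held with 961C and missing from 748T it was 0 of 32 (0 to 10.9). The last 2 intervals overlap that of the 4.59%. The H3K27me3 lists differ in length, with 19102 autosomal peaks in 961C, 8362 in 748T and 5424 in 106A. Reduced to their 5424 tallest peaks each, the lists gave 22.7% for 961C at the 299 regions it lacks, 10.8% at the narrower ones and 0.461% at the other shared regions, and 5.05% and 4.59% for 748T and 106A at those of 961C. At equal list length, the share of 961C at the regions it lacks thus stayed above those of the pre-T lines at regions of 961C alone. It was lower than with the full lists. The 10.8% is at shared regions, an unlike class, and is not set against the pre-T shares. Equal numbers of peaks need not give equal coverage, and the full lists covered 8.78 Mb in 961C, 2.23 Mb in 748T and 1.51 Mb in 106A.

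**Figure D5:**
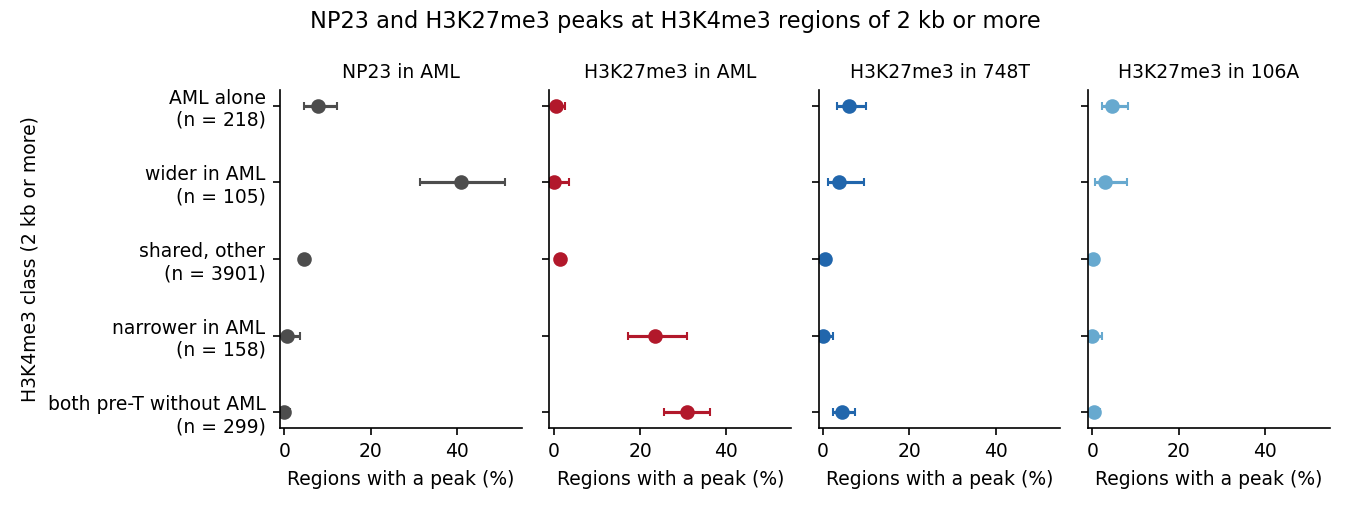
Share of regions of 2 kb or more (x axis, %) that overlap an NP23 peak of 961C or an H3K27me3 peak of each line (panels), for 5 classes of H3K4me3 difference (y axis, n per class), with exact 95% intervals as bars. NP23 peaks at 41.0% in regions wider in 961C (AML), and H3K27me3 of 961C at 30.8% in the regions it lacks.

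At 2 kb or more, regions that only 1 pre-T line held gave lower values. Of regions of 2 kb or more held by 748T alone, 9 of 57 (15.8%, 7.48 to 27.9) had H3K27me3 in 961C, and of those held by 106A alone 7 of 81 (8.64%, 3.55 to 17.0). The interval of the first overlaps that of the 299 regions, and the interval of the second does not. Between the pre-T lines some figures were near those of 748T and 106A at regions of 961C alone, 5.96% and 4.59%, and others were lower. Of the 130 regions of 2 kb or more held by 961C and 748T and missing in 106A, 5 (3.85%, 1.26 to 8.75) had H3K27me3 in 106A. Of the 81 held by 106A alone, 5 (6.17%, 2.03 to 13.8) had H3K27me3 in 748T. Of the 57 held by 748T alone, 1 (1.75%, 0.0444 to 9.39) had H3K27me3 in 106A. Of the 32 held by 961C and 106A and missing in 748T, 0 (0 to 10.9) had H3K27me3 in 748T. In 748T, 13 of the 299 regions (4.35%, 2.34 to 7.32) had an H3K27me3 peak of that line, and the share was 0.408% with 106A left out of the rule.

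Some differing regions lay near each other, grouped here by a distance set after the data were seen. Of 383 regions that were wider in 961C or of 2 kb or more in 961C alone, 83 (21.7%) had another within 100 kb, in 37 groups. For the pre-T lines the set was stricter: regions narrower in 961C, and the 136 regions without 961C that reached 2 kb in both pre-T lines. Of these 508 regions, 109 (21.5%) had another within 100 kb, in 47 groups, and the shares are not compared. The same share among all regions was not computed, so neither value shows that differing regions cluster. The largest group of 961C was on chromosome 5 from 115713647 to 115792936, with 5 regions. They summed to 25684 bp in 961C, 7257 bp in 748T and 8269 bp in 106A, and held 12 NP23 peaks. On chromosome 3 from 58217725 to 58384301, 4 regions summed to 31123, 9938 and 11503 bp with 15 NP23 peaks, and each of the 4 held at least 3. Both groups include regions that nearly adjoin. On chromosome 5 a region ended at 115717952 and the next began at 115718123, and on chromosome 3 these positions were 58325028 and 58325181. Members of a group thus need not be separate domains.

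Not every such group was bound. The 3 regions on chromosome 6 from 129130532 to 129303514 (10410, 1373 and 3399 bp) held no NP23 peak. On chromosome 19 from 12533686 to 12642809, 3 regions summed to 13956 bp in 961C, 603 bp in 748T and 1379 bp in 106A, with 8 NP23 peaks, and 2 of them were absent from both pre-T lines. Around the chromosome 17 region at 34325797, 3 regions from 34272478 to 34350224 summed to 12781, 2611 and 1506 bp with 6 NP23 peaks.

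The largest group of the pre-T lines was on chromosome 15 from 97547867 to 97675749, where 6 regions summed to 23226 bp in 748T and 29452 bp in 106A, and to 2891 bp in 961C. In 961C, 3 of the 6 had no peak and the others measured 495 to 1382 bp. The next, on chromosome 17 from 28618831 to 28662317, had 4 regions with 15390, 18680 and 2366 bp in the same order. Neither group held NP23, and 961C had 1 H3K27me3 peak in the latter and 0 in the former. On chromosome 15 the second track of 748T was 1.52 times its list's mean, and on chromosome 14 it was 1.47 times, against 0.974 and 0.987 in 961C. Without these chromosomes 4294 regions of 961C alone and 1749 of both pre-T lines remained.

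Exclusive regions were spread over all autosomes. Those of 961C alone made up 17.6% of regions on chromosome 17, the lowest share, and 24.3% on chromosome 16, the highest. Those of both pre-T lines without 961C ranged from 6.94% on chromosome 2 to 10.9% on chromosome 15. Regions of 961C alone mostly stood by themselves: 443 of 4648 (9.53%, 8.70 to 10.4) lay within 1 kb of a pre-T peak, and 7 of the 218 of 2 kb or more did. For regions of both pre-T lines without 961C these counts were 203 of 1926 (10.5%) and 7 of 299.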

How the data were processed

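Chromatin of each line was fixed with formaldehyde, sonicated, precipitated and sequenced with single-end reads, per the labels' protocols. The submitters' processing notes name CASAVA 1.9, BWA 0.5.9-r26 and the mm9 build. The sources used here do not name the peak caller or its threshold. The lists the authors deposited give start, end and a text field with the mean and maximum pileup height of the sample and of a second track, here read as heights with no scaling to depth (2, 1 and 0 peaks of 961C, 748T and 106A lack the second track).

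Peaks on the 19 autosomes were merged where they overlapped by 1 bp or more, with Python 3.11.15, numpy 2.4.6, pandas 2.3.3 and scipy 1.17.1; 587, 550 and 531 peaks on other chromosomes were left out. Summed width and the rank of the tallest peak were taken per region and line, with limits of 2-fold and 25 points against both pre-T lines. Regions named are the 10 widest exclusive ones each way. Among shared regions of 2 kb or more, the 10 with the largest width ratio each way are also named. So are the 5 shared regions with the largest rank difference each way, which include regions under 2 kb. Ratios and differences were taken against the nearer pre-T line. The comparison and its lists were chosen with earlier results of these data known. The 4 kb limit, the 100 kb grouping and the tallest exclusive regions were chosen after values were seen. Gene lists were not used, since they need an mm9 annotation. On simulated data the merging recovered 100% of 5000 regions, and the width calls 100% of 126 wider and 125 narrower ones. The simulated regions lay far apart, and their planted 3-fold width changes exceeded the 2-fold limit by more than the simulated noise. Full recovery was thus set by the simulation. It checks the steps and does not measure accuracy on these lists.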

Additional observations from a re-analysis of the deposited data

How the results depend on the processing

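Of 104 recomputed counts and shares, 63 stayed within the spread or within 1.5 times and 41 moved; the cause was not tested. Of 300 recomputed values for the named regions, 264 kept their call, 36 lost it and 0 turned direction. With either pre-T line left out, all 50 regions kept their call. They were chosen for differing from both lines, so this was fixed in advance and is no test. All 36 losses came from the other settings. Settings that only remove peaks cannot add a pre-T peak to a region of 961C alone, or a 961C peak to one it lacked. The 264 and the 0 are therefore in part set by the choice of regions. In 28 of the 36 the difference was as large as before or larger, as for the region on chromosome 17 at 34325797 with peaks of 500 bp or more, where the short pre-T peaks were dropped and the width difference went from 6172 to 6511 bp. In 4 it was smaller and in 4 it was 0. In the taller 50% of each list, 961C alone had 956 regions, both pre-T lines without it 637 and all lines 6367, with 94 wider, 94 narrower, 639 higher and 560 lower in rank. Peaks of 500 bp or more gave 2194 and 1209 exclusive regions, 203 narrower and 415 higher in rank, and joining peaks within 1 kb gave 350 higher. Limits of 1.5-fold gave 487 wider and 708 narrower, and 3-fold 47 and 147. Limits of 15 points gave 838 higher and 824 lower, and 40 points 27 and 75. At 5 kb, 94 regions were broad in 961C alone and 45 in both pre-T lines. With equal numbers of H3K27me3 peaks (5424 per list), a setting added after seeing the data, H3K27me3 of 961C was at 22.7% of the regions it lacks, 10.8% of narrower, 0.461% of other shared regions and 0% of regions of 961C alone. Equal numbers of H3K4me3 peaks (15793), the mean height, centred ratios, an overlap of 50% for the other readouts and leaving out chromosomes 14 and 15 moved no count by over 1.5 times.

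With 1 pre-T line left out, the counts ranged from 5032 to 5687 for 961C alone, 4350 to 5038 for pre-T regions without it, 10124 to 10825 shared, 436 to 604 wider, 572 to 688 narrower, 608 to 798 higher and 644 to 663 lower. Broad regions ranged from 198 to 223 for 961C alone and from 114 to 254 for the pre-T side. NP23 at wider regions ranged from 27.1% to 30.6%, H3K27me3 of 961C at other shared regions from 0.924% to 1.11%, and H3K27me3 of 748T at regions 961C lacks was 0.408%. No paired analysis was possible because the AML side has 1 sample. Depth per library is unknown, so a peak missing from a list may lie below its threshold.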
